A study of Mus musculus with 4 samples.

Results

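Interferon-stimulated genes, the genes that cells switch on when an interferon binds its receptor, were followed in the prostates of 4 individual mice and in a wild-type prostate pool. They were taken from a list of 34 genes, by the gene name or an older alias given for each probe on the array. A probe so named was found for 31 listed genes, and Irgm2 entered through its older name Iigp2, which gave 32 genes of the 27962 gene names on the array. Their 50 probes were all kept. A test was possible for 42 probes of 30 genes, of which 24 were type I responders and 6 were type II responders. Oas1g and Oas3 were too dim to test. Gbp3, Dhx58 and Irgm1 stood under other names in the array files, were found only through their transcript accessions, and are given apart at the end.

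The 2 mutant mice were Rb1R654W/F, with 1 Rb1 allele coding for the R654W protein and the other allele conditional. The 2 null mice were Rb1F/F, with both Rb1 alleles conditional. All 4 were also Trp53F/F and carried PB-Cre4, a Cre transgene under a probasin promoter, which is active in prostate epithelium, so recombination reaches only part of the tissue. All were 60 days old, of mixed C57BL/6:129/SVJae:FVB background and untreated. The comparison sample was prostate RNA pooled from 3 wild-type mice. Each array set 1 mouse in red (Cy5) against this pool in green (Cy3), with no dye swap, so every value below is a log2 ratio of mouse to pool, where 1 stands for a 2-fold difference. The labels give no age or strain for the pool, and the dye was always red for a mouse and green for the pool. Rb1, Trp53, Cre, dye and any difference in age or background thus cannot be told apart in a comparison with the pool. Where 4 values are given in a row, they belong to mutant mouse 1, mutant mouse 2, null mouse 1 and null mouse 2.

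Type I interferons, such as the alpha and beta forms, act through a complex of Stat2, Irf9 and a further STAT protein that binds the interferon-stimulated response element (ISRE) in promoters. Type II interferon, interferon gamma, acts through a STAT dimer that binds the gamma-activated site (GAS) and through Irf1, which itself binds ISRE-like sequence. The genes they switch on restrict viruses and intracellular microbes, and several, such as Irf7, Irf9 and Stat2, feed back on the response. In a tissue, epithelium, stroma and resident leukocytes can all carry such a response, with macrophages a common strong responder. RNA of whole tissue does not part fewer cells of a type from less RNA per cell.

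The promoters show what the members share beyond their names. The sequences below are from RefSeq (GRCm38.p6), lie upstream of the annotated start, run 5′ to 3′ on the gene's strand, and were chosen for the genes that the results turn on. Capitals mark matches to the ISRE core, which was searched on both strands as GAAA, any 2 bases and GAAA again (on the other strand TTTC, any 2 bases and TTTC). Isg15 holds 3 overlapping matches at chr4:156200862-156200921 (minus strand). Ifit1 holds 2 at chr19:34640760-34640819 (plus strand). Oas1a at chr5:120907526-120907570 and its near copy Oas1g at chr5:120887614-120887656 (both minus strand) carry the same pair of matches directly before the start. Stat2 is shown at chr10:128270251-128270310 (plus strand). Of the type II responders, Irgm2 is shown at chr11:58214888-58214947, Igtp at chr11:58199497-58199555 and Gbp2 at chr3:142620579-142620638 (all plus strand), and the windows of Irgm2 and Igtp, neighbours on chromosome 11, are nearly the same.
Isg15: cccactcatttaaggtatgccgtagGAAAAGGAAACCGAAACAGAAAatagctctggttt
Ifit1: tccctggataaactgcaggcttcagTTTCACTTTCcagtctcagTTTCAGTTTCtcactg
Oas1a: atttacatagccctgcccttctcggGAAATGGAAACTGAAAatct
Oas1g: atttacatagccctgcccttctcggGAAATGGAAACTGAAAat
Stat2: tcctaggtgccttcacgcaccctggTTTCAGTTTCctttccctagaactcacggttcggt
Irgm2: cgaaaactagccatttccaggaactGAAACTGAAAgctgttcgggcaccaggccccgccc
Igtp: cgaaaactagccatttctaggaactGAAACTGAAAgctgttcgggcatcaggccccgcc
Gbp2: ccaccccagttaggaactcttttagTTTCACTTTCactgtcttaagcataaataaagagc

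Over the window from 250 bases before to 50 bases after the start, the promoter table held 25 of the 32 genes. An ISRE match was present in 16 of these 25 genes (64%), against 3.99% of all 27025 genes in the table. The GAS sequence TTCNNNGAA, which reads the same on both strands, was present in 9 of 25 (36%), against 9.55% of all genes. By class, ISRE matches stood in 12 of 20 type I genes and in 4 of 5 type II genes, and GAS matches in 5 and 4. Both sequences occurred in 6 genes, among them Igtp, Irgm2, Tgtp and Bst2. Neither occurred in 6, namely Irf7, Irf9, Oasl1, Oasl2, Ifi44 and Trim25. A match describes the letters of this window only. The list is made of known responders, so a high share is no result of these arrays.

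The arrays gave 43379 non-control spots for 41174 probes, and 24850 probes passed the brightness filter and were tested. In the mouse channel, 22168 probes were well above background in null mouse 1 and 25034 to 26116 in the others, while the pool channel had 22310 to 23055. Across probes, the SD of the log2 ratio was 0.54 in null mouse 1 and 0.29 to 0.44 in the others. Rb1 lay at -0.65, -0.24, 0.09 and -0.87, and the brighter Trp53 probe at 0.14, 0.12, 0.53 and 0.08. The dimmer Trp53 probe lay at -0.08, -0.27, -0.05 and -0.40, so the Trp53 probes differ in sign. The probes are not known to lie in the deleted parts and Cre does not reach every cell, so these values do not check the labels. All 8 prostate epithelium markers with a probe were bright enough to test, led by the secreted transglutaminase Tgm4 (0.42, 0.02, -0.03 and -0.19) and Krt18 (0.27, -0.07, 0.85 and -0.11). Msmb and Hoxb13, picked out after their values were seen, stood at -3.13 and -1.32 in null mouse 1. In that mouse 3 of the 8 markers stood above the pool, Krt8 (1.30), Krt18 (0.85) and Pbsn (0.34), and the median of the list was -0.10. Seminal vesicle genes had medians of -4.08, -0.61, -4.64 and -3.59. The part of these differences in the values below was not tested.

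The interferon-stimulated genes differed more between the 2 null mice than between the genotypes. Null mouse 2 was the highest of the 4 for 28 of 30 genes (20.6% of all probes tested), and null mouse 1 was the lowest for 25 (37.6%). The mutant mice lay between them. The full order of null mouse 2, mutant mouse 1, mutant mouse 2 and null mouse 1 held for 20 genes, against 5.83% of all probes. This order was read from the values, so its counts are descriptions. Each gene counts once, by its brightest probe, while the shares cover all probes tested. For the 24 type I responders the median log2 ratio to the pool was 0.74, 0.05, -0.38 and 0.99. For the 6 type II responders it was 0.62, 0.22, -0.07 and 1.15. Over all probes tested these medians lay between -0.01 and 0.03. The members are genes of 1 tissue sample in each mouse, not replicates of it, so the medians describe these 4 mice. Of the 30 genes, 28 stood above the pool in mutant mouse 1, 23 in mutant mouse 2, 10 in null mouse 1 and 30 in null mouse 2. With each array centred on its median log ratio in place of loess these counts were 30, 30, 9 and 30, with the median of all probes at 0.62, 0.56, -0.04 and 0.41. At least 2-fold above the pool were 9 genes in mutant mouse 1 (2.71% of all probes), 0 in mutant mouse 2 (0.499%), 0 in null mouse 1 (2.94%) and 15 in null mouse 2 (1.14%).

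**Figure D1:**
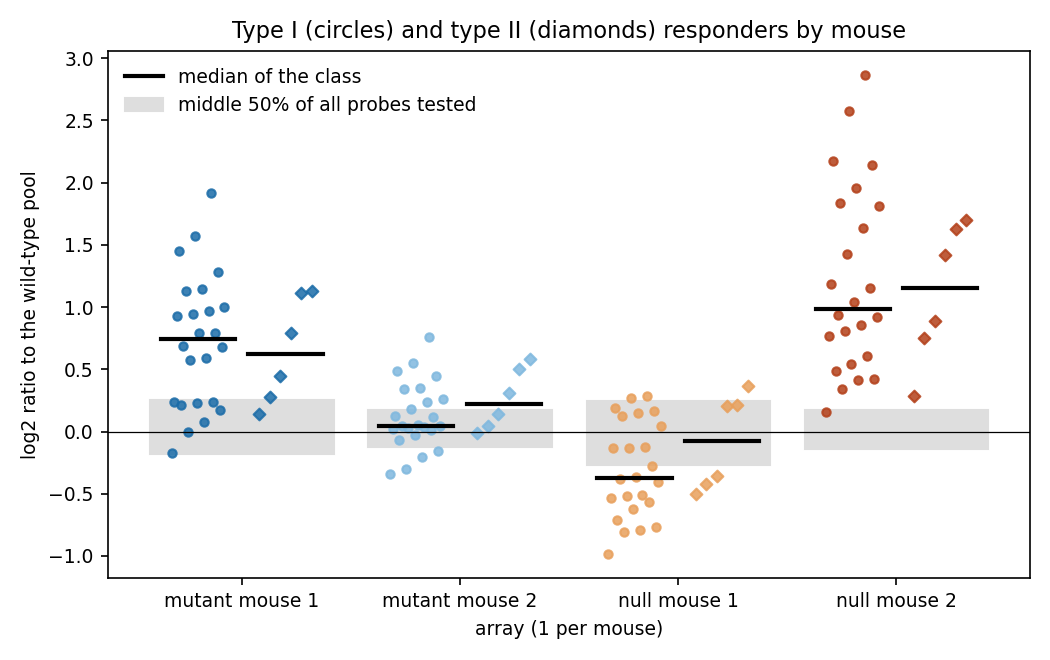
Log2 ratio to the wild-type pool (vertical axis) of the 24 type I (circles) and 6 type II responders (diamonds) in each of the 4 mice, 1 point per gene. Black bars are class medians and grey boxes the middle 50% of all 24850 probes tested; null mouse 2 has the highest medians (0.99 and 1.15) and null mouse 1 the lowest (-0.38 and -0.07).

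The values of each gene follow by role, each from the gene's brightest probe. First come the transcription factors of the response. Stat2, the partner of Irf9 in the type I complex, lay at 1.15, 0.45, -0.41 and 0.42. Irf9, its DNA-binding subunit, lay at 0.59, 0.23, -0.62 and 0.81. Irf7, which drives the production of interferon alpha and is itself induced, lay at 1.28, 0.05, -0.52 and 1.84. Null mouse 1 was lowest for all 3. For Irf9 and Irf7 null mouse 2 was highest and the genotypes overlapped. For Stat2 mutant mouse 1 was highest, and both mutant mice lay above both null mice, though mutant mouse 2 (0.45) and null mouse 2 (0.42) were nearly level.

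The ISG15 system attaches and removes a ubiquitin-like protein. Isg15, that protein, lay at 0.97, 0.35, -0.13 and 1.64. Usp18, the protease that removes it and an inhibitor of receptor signalling, lay at 1.45, 0.34, -0.80 and 2.58. Its probe at chr6:121295796-121295855 (mm7) showed the widest gap of any member between the null mice, 10.4-fold. Trim25, an E3 ligase that ISG15 modifies and that also acts on RIG-I, lay at -0.17, -0.16, -0.54 and 0.15. It spanned the least of the 3 and lay below the pool in all but null mouse 2. The genotypes overlapped for each of these genes, with the null mice at both ends.

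IFIT proteins bind foreign RNA and block its translation. Ifit1 lay at 0.80, -0.07, -0.71 and 1.81, and Ifit3 at 0.24, -0.34, -0.37 and 1.15. Ifit2 spanned much less, at 0.23, 0.04, 0.05 and 0.49. Null mouse 2 was highest for all 3, and the genotypes overlapped. Ifit3 has a near copy beside it, Ifit3b, so its probes may read both.

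The MX proteins are dynamin-like GTPases against viruses. Mx2 lay at 1.00, -0.20, -0.57 and 1.43. Mx1 lay within 0.02 of the pool in both mutant mice, at -0.98 in null mouse 1 and at 0.34 in null mouse 2. Many laboratory strains carry a disrupted Mx1, and the RefSeq annotation of C57BL/6J lists it as a pseudogene. For both genes null mouse 1 was lowest and null mouse 2 highest.

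The OAS family makes the messenger that switches on RNase L. Oas1a and Oasl2 had the widest gaps between the null mice after Usp18. Oas1a lay at 1.13, 0.13, -0.79 and 1.96, and Oas2 at 1.57, 0.49, 0.19 and 2.14. Oas2 was well above background in the pool on only 1 of 4 arrays, so its ratios rest on a dim reference. The OAS-like gene Oasl2 lay at 1.92, 0.76, 0.29 and 2.87, the highest value of any member in each mouse except null mouse 1. Oasl1, which represses translation of Irf7 mRNA, lay at 0.79, 0.02, -0.12 and 0.93. Over these 4 genes the median was 1.35, 0.31, 0.03 and 2.05, and all 4 followed the full order of the mice. Oas1a has near copies in its cluster, so its probe may read more than 1 of them.

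Among sensors of foreign nucleic acid, 3 could be tested. Ddx58 (RIG-I), a sensor of viral RNA, lay at 0.17, 0.26, 0.13 and 0.54. Ifih1 (MDA5), a sensor of long double-stranded RNA, lay at 0.21, 0.18, 0.15 and 0.60. Zbp1, a sensor of Z-form nucleic acid, lay at 0.68, 0.11, 0.27 and 0.92. It was well above background in the pool on 3 of 4 arrays, so its reference is dim too. At these probes all 3 stood above the pool in all 4 mice, and null mouse 2 was highest. The gap between the null mice was 0.41 to 0.65. It was wider at the dimmer Ddx58 probes, which lay at 0.45, 0.20, -0.23 and 0.63 and at -0.09, -0.01, -0.34 and 0.38, below the pool in null mouse 1. Dhx58, a further gene of this role found by accession alone, is described with the genes kept apart.

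Membrane and lipid effectors included Bst2 (tetherin), which holds budding virions at the cell surface, at 0.08, 0.05, -0.28 and 0.77. Ifitm3, which blocks fusion of viruses in endosomes, lay at 0.94, 0.55, -0.13 and 1.04. Rsad2 (viperin), which makes a chain-terminating nucleotide, lay at 0.58, -0.30, -0.77 and 1.18. All 3 followed the full order of the mice. For Ifitm3 mutant mouse 1 was nearly level with null mouse 2. Among the other type I genes, Ifi35 lay at 0.23, 0.03, -0.38 and 0.41 and Parp14, an ADP-ribosyltransferase, at 0.69, 0.04, -0.51 and 0.86. Ifi44 lay at 0.93, -0.03, 0.16 and 2.18. It was 1 of 5 genes whose lowest mouse was not null mouse 1, with Ifit2, Zbp1, Gbp2 and Tgtp.

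The type II responders were mostly GTPases that act on the vacuoles of intracellular microbes. Irgm2 lay at 1.13, 0.58, -0.35 and 1.70, and Igtp (Irgm3) at 0.80, -0.01, -0.42 and 1.42. Iigp1 (Irga6) lay at 1.11, 0.50, 0.22 and 1.63. These 3 genes followed the full order of the mice. Gbp2, a guanylate-binding protein, lay at 0.14, 0.31, 0.37 and 0.89, with both mutant mice below both null mice, though mutant mouse 2 and null mouse 1 were nearly level. Tgtp lay at 0.27, 0.14, 0.21 and 0.75. It has a near-identical neighbour copy, so the probe may read both. Irf1, the transcription factor, lay at 0.45, 0.04, -0.50 and 0.29 and was, beside Stat2, the other gene with mutant mouse 1 highest. Its dimmer probe, well above background in every reading, lay at -0.18, -0.06, -0.38 and -0.22. There each mouse was below the pool and mutant mouse 2 was highest.

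**Figure D2:**
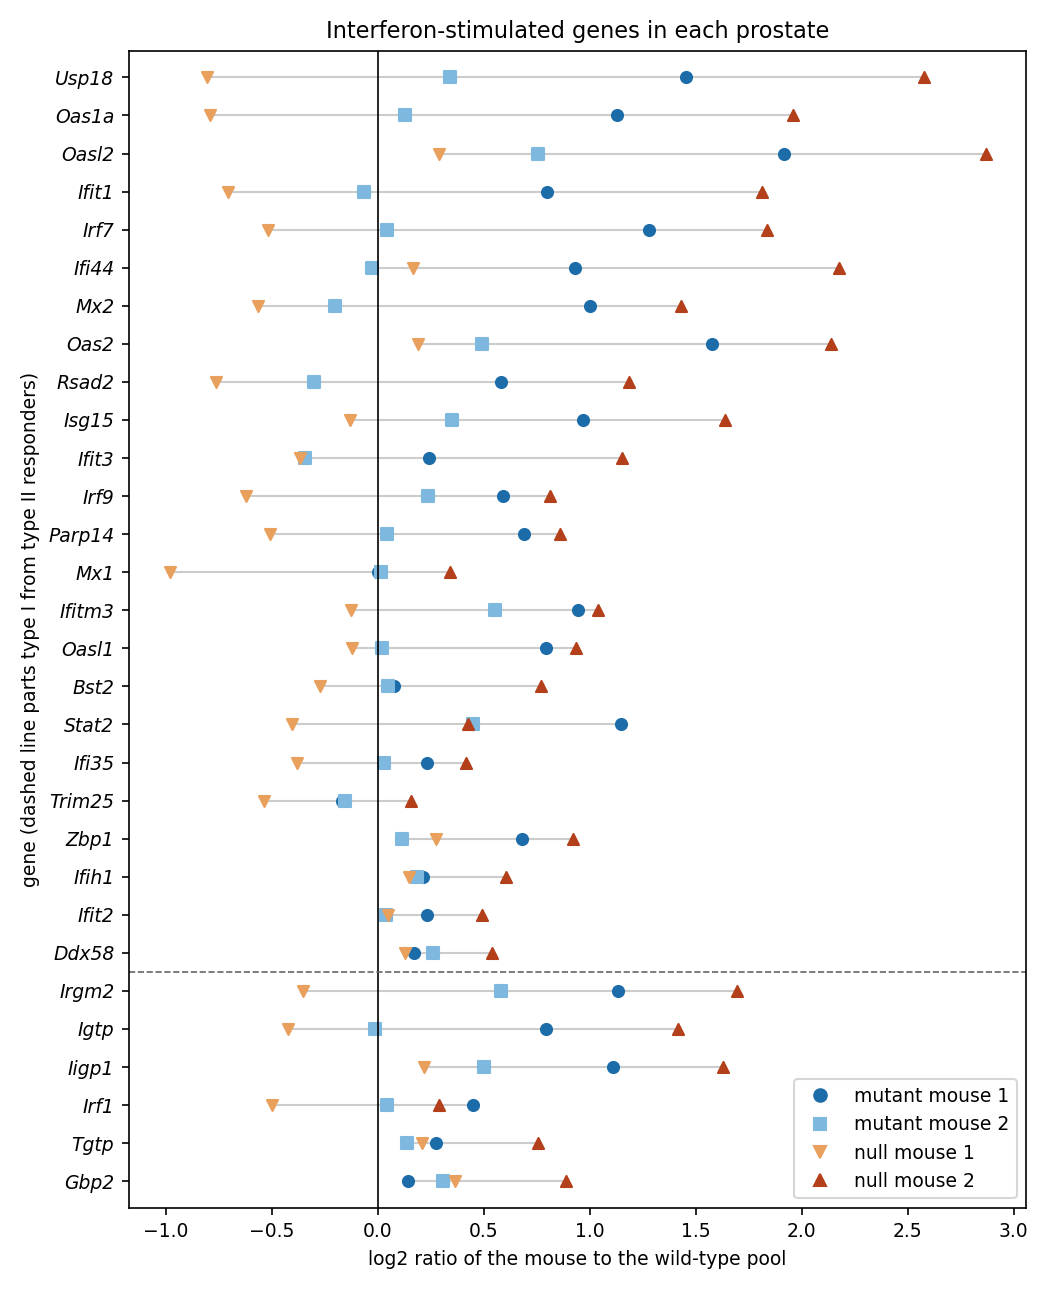
Log2 ratio to the pool (horizontal axis) of each of the 30 genes (vertical axis, type I above the dashed line, type II below, sorted by the gap between the null mice), 1 symbol per mouse. Null mouse 2 is rightmost for 28 genes and null mouse 1 leftmost for 25, with Usp18 at the widest gap (-0.80 to 2.58).

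The gap between the null mice was larger than the difference between the genotypes for each member. Null mouse 2 exceeded null mouse 1 for 30 of 30 genes (52.4% of all probes tested), by a median of 1.39 (2.62-fold) and a range of 0.41 (Ddx58) to 3.38 (Usp18). It was 2-fold or more for 20 of 30 (3.97%). The mutant mice differed less. Mutant mouse 1 exceeded mutant mouse 2 for 26 of 30 (52.3%), by a median of 0.60, and by 2-fold or more for 6 (1.72%): Usp18, Mx2, Oas1a, Oas2, Oasl2 and Irf7. The genotype means differed by a median of -0.08. In absolute size, the gap between the null mice was larger than the mean difference between genotypes for 30 of 30 genes, and for 67.5% of all probes. With Agilent's processed signals it was larger for 28 of 30. Against the mean of the mutant mice, null mouse 2 was higher by a median of 0.68 and null mouse 1 lower, at a median of -0.80.

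**Figure D3:**
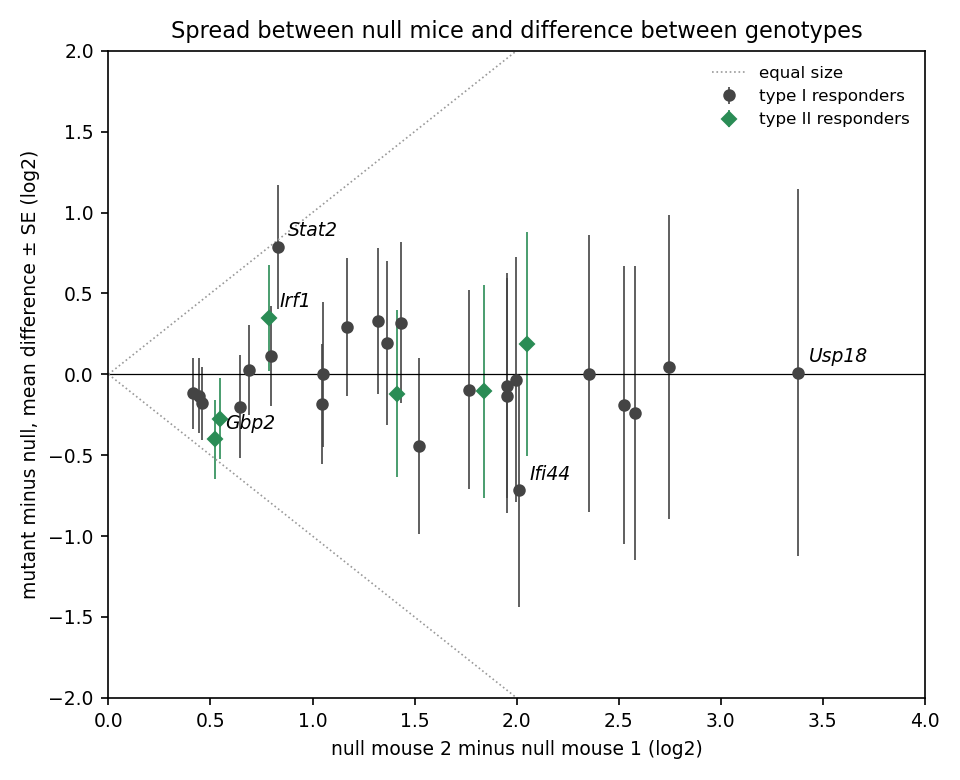
Mutant minus null difference of each gene with its standard error from limma (vertical axis, log2) against null mouse 2 minus null mouse 1 (horizontal axis, log2). Dotted lines mark equal size; all 30 genes lie between them, from Ddx58 at 0.41 to Usp18 at 3.38 along the horizontal axis, and Stat2 (0.79) lies nearest the upper line.

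The same pool was in the green channel of all 4 arrays, so the spread of its signal holds no difference between animals. It includes hybridisation. Whether the pool was labelled anew for each array is not known here, so labelling may not be part of it. The SD of its normexp-corrected log2 signal over the arrays was a median of 0.0738 for the 30 genes, at most 0.148. The mouse channel, which holds 4 animals, had a median SD of 0.695. Over all probes tested these medians were 0.0632 and 0.348. That animals spread more than a repeated pool is fixed by the design and was so for 98% of all probes. With the mouse channel read alone, null mouse 2 was highest for 27 genes and null mouse 1 lowest for 22.

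Mutant against null, the comparison in the study's title, asks how a retinoblastoma protein with impaired E2F binding compares with loss of Rb1. No interferon-stimulated gene passed the test at an adjusted p under 0.05 in limma with Benjamini-Hochberg adjustment, and none of the 24850 probes did (0%). At an unadjusted p under 0.05 there were 0 members, against 1.19% of probes higher and 0.99% lower. The difference was positive for 12 of 30 genes, with a median of -0.08 and a range of -0.72 (Ifi44) to 0.79 (Stat2). Over all probes the median was 0.02. By class the medians were -0.05 for type I and -0.11 for type II, and median centring turned both signs, to 0.34 and 0.39, as it moved the median of all probes to 0.38. Under that scaling 27 of 30 genes were positive, all but Oas2, Zbp1 and Ifi44, and 14 lay above the median of all probes, against 10 in the loess-normalised values. The sign of these small medians thus depends on the scaling. The genotypes did not overlap for 1 gene with the mutant mice higher, Stat2 (16.7% of probes), and for 1 with the mutant mice lower, Gbp2 (13.6%).

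Stat2, read at chr10:127793622-127793681 (mm7), averaged 0.80 ± 0.50 (SD, n = 2) in the mutant mice and 0.01 ± 0.59 (SD, n = 2) in the null mice. The difference was 0.79 ± 0.38 (SE), with an unadjusted p of 0.0944 and an adjusted p of 0.985 in limma, and its 95% interval ran from -0.19 to 1.77. For Ifi44 the difference was -0.72 ± 0.72 (SE) with an unadjusted p of 0.366 in limma. Gbp2, read at chr3:142530694-142530753 (mm7), averaged 0.22 ± 0.12 (SD, n = 2) in the mutant and 0.63 ± 0.37 (SD, n = 2) in the null mice. Its difference was -0.40 ± 0.24 (SE), with an unadjusted p of 0.159 in limma and an interval of -1.03 to 0.22. Tgtp differed by -0.27 ± 0.25 (SE), with an unadjusted p of 0.32 in limma. The intervals are wide. They reached 0.56 to either side of the difference at the least (Ddx58), 1.29 at the median and 2.91 at the most (Usp18), and all 30 held 0. A 2-fold difference in at least 1 direction lay within the interval for 24 genes, so these data do not show that the genotypes are alike. An exact permutation of 2 against 2 mice cannot give a p below 0.333.

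Which null mouse is left out sets the sign of the class medians. Without null mouse 1, mutant minus null had a median of -0.62 for type I and -0.74 for type II. Without null mouse 2 the medians were 0.86 and 0.66. No member passed the threshold in either fit.

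Mutant against the pool, no member passed the threshold in limma, nor did any probe (0%). The mean of the mutant mice was above the pool for 28 of 30 genes, with a median of 0.39. At an unadjusted p under 0.05 in limma there was 1 gene higher, Stat2 (6.26% of all probes), and 0 lower (4.36%). Its mean was 0.80 ± 0.27 (SE), with an unadjusted p of 0.0319 and an adjusted p of 0.453 in limma. Ifitm3 followed at 0.75 ± 0.30 (SE), with an unadjusted p of 0.055 in limma. Among type II genes the smallest were Iigp1 at 0.80 ± 0.36 (SE) and Irgm2 at 0.86 ± 0.49 (SE), with unadjusted p of 0.0779 and 0.139 in limma. The type I median of 0.40 came to 0.05 without mutant mouse 1 and 0.74 without mutant mouse 2.

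Null against the pool, no member and no probe passed the threshold in limma (0%). The mean was above the pool for 27 of 30 genes, with a median of 0.44. An unadjusted p under 0.05 in limma was seen for 3 genes higher (4.84% of all probes), Gbp2, Tgtp and Zbp1, and for 0 lower (5.38%). Gbp2 stood at 0.63 ± 0.17 (SE) with an unadjusted p of 0.0149, Tgtp at 0.48 ± 0.18 (SE) with 0.0405 and Zbp1 at 0.60 ± 0.23 (SE) with 0.0463, and the smallest adjusted p was 0.473 in limma. Oasl2 stood at 1.58 ± 0.64 (SE) with an unadjusted p of 0.0571 in limma. The first 3 had gaps between the null mice of 0.52 to 0.65, against 2.58 for Oasl2. The type I median of 0.40 came to 0.99 without null mouse 1 and -0.38 without null mouse 2. Both comparisons with the pool use the same pool RNA, so their likeness is no separate evidence.

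Over all 4 mice against the pool, 0 members passed the threshold in limma, and 3 probes did (0.0121%). The mean was positive for 28 of 30 genes, with a median of 0.41 and a range of -0.18 (Trim25) to 1.46 (Oasl2), against a median of 0.02 over all probes. At an unadjusted p under 0.05 in limma, 7 genes were higher (9.32% of all probes) and 0 lower (8.29%). The 7 were Oas2, Oasl2, Zbp1, Ifitm3, Gbp2, Iigp1 and Tgtp. Gbp2 had the smallest adjusted p, 0.225, with a mean of 0.42 ± 0.12 (SE) in limma. Oasl2, read at chr5:114132992-114133051 (mm7), stood at 1.46 ± 0.45 (SE) with an adjusted p of 0.24, and Zbp1 at 0.50 ± 0.16 (SE) with 0.245 in limma. Iigp1 stood at 0.86 ± 0.26 (SE) with an adjusted p of 0.23 in limma. All 4 mice were above the pool for 9 genes (16.7% of all probes): Ifit2, Oas2, Oasl2, Ddx58, Ifih1, Zbp1, Gbp2, Iigp1 and Tgtp. The pool counts as 1 sample here, so the spread between wild-type mice is left out of these tests.

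More than 1 tested probe was available for 10 genes, giving 12 dimmer probes. The gap between the null mice was smaller than at the brightest probe for 10 of these 12. The order of the 4 mice was that of the brightest probe at 2, 1 each of Ifit3 and Ddx58. Null mouse 2 was highest at 7 and null mouse 1 lowest at 9. At the dimmer probes of Parp14 and Rsad2 mutant mouse 1 was highest. For Irf9 the null mice differed by 1.44 at the brightest probe and 0.42 at the other. For Parp14 the gaps were 1.37 and 0.48, and for Rsad2 1.95 against 0.41 and 0.56 at the others. Ifi44 gave 2.01 and 1.06. Null mouse 1 was not well above background at 8 of the 12 dimmer probes, those of Irf9, Rsad2 and Ifi44 among them, so the gap there is measured on 1 side only. All 30 brightest probes were well above background in all 4 mice. Ddx58 went the other way, with 0.41 at its brightest probe and 0.72 to 0.86 at the others. Trim25 was the exception in sign, with 0.69 and -0.02. Of the 42 tested probes, null mouse 2 exceeded null mouse 1 at 41.

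The 3 listed genes found by accession alone ran the same way. Dhx58 (LGP2), a regulator of RIG-I and MDA5, lay at 1.00, 0.28, -0.22 and 1.72. Gbp3 lay at 0.96, 0.34, -0.16 and 1.57. Irgm1, at its brighter probe, lay at 0.25, 0.05, -0.49 and 0.75. They were left out of all counts above.

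The authors' deposited table gives genotype means as linear ratios to the pool with a standard error. In the authors' deposited table, 43 entries belong to 33 listed or alias-matched genes, and the mutant mean is the lower in 34 of them. The error of the null mean is larger than that of the mutant mean in 38. The shares over all entries of the deposited table were not computed, so these counts are no result about the members. The smallest ratio between genotype means among these entries is 1.15 (Irgm1 and Irgm2), and Ifi35 and Ifitm3 have no entry, so the entries may be a selection. For Usp18 the authors' deposited table has 3.48 (SEM 3.14) in null and 1.95 (SEM 0.759) in mutant mice, and for Oasl2 4.65 (SEM 3.53) and 2.71 (SEM 1.06). For Stat2 the authors' deposited table has 0.949 (SEM 0.341) in null and 1.67 (SEM 0.347) in mutant mice. A mean of linear ratios weights the higher mouse more than a mean of logs does, and here Usp18 differed by 0.01 on the log2 scale.

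Genes that make, sense or relay interferon were listed apart, and 29 of 36 with a probe could be tested. None was called in any of the 4 comparisons in limma, against the shares of probes given above. Null mouse 2 was highest for 5 of the 29 and null mouse 1 lowest for 12. Of 8 ligand genes, only Ifna1 passed the brightness filter, at -0.06, 0.07, 0.02 and 0.06. Its mean log2 intensity of 6.27 was near the lowest readings well above background, 5.99 to 6.24 over arrays and dyes. Ratios near 0 at so dim a probe do not show that its level equals that of the pool. Ifnb1, Ifna2, Ifna4, Ifne, Ifnk, Ifng and Ifnl3 were not well above background. All 6 receptor genes were tested, with medians of 0.33, 0.16, 0.12 and 0.15. The interferon gamma receptor chains Ifngr1 and Ifngr2 lay at 0.56, 0.38, 0.07 and 0.13 and at 0.96, -0.07, 0.19 and 0.18. The type I receptor chains Ifnar1 and Ifnar2 lay at 0.39, -0.19, 0.14 and -0.03 and at 0.21, 0.32, 0.09 and 0.41. The lambda receptor chains Ifnlr1 and Il10rb lay at 0.27, 0.37, 0.67 and 0.04 and at 0.20, 0.01, -0.22 and 0.31. Mutant mouse 1 stood above the pool for 6 of 6 receptors and the others for 4, 5 and 5. The summed receptor signal was 20897 and 19757 in the mutant mice and 16242 and 17466 in the null mice, against 14209 to 16201 in the pool. Ifngr1 weighs most in this sum, at a mean log2 intensity of 13.34 against 11.19 for the next, Ifngr2. The genotypes did not overlap for 1 receptor, Ifngr1, with the mutant mice higher (16.7% of all probes), and for 0 with them lower (13.6%). Irf2, a repressor of ISRE-driven genes, lay at 1.09, -0.08, 0.03 and 0.48, and Socs1, a feedback inhibitor of JAK kinases, at 0.69, -0.12, -0.12 and 0.21. For both, mutant mouse 1 and not null mouse 2 was highest. Medians lay at -0.28, -0.30, 0.09 and -0.09 for 5 kinases and STATs, at 0.11, -0.09, 0.10 and 0.26 for 4 other IRFs, at 0.10, 0.09, -0.08 and 0.05 for 9 inducers and at 0.13, -0.09, -0.05 and 0.02 for 4 inhibitors.

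The medians of the macrophage markers stood in the same order of mice as those of the interferon-stimulated genes. All 10 were tested, with medians of 0.69, 0.61, -0.16 and 1.21, and they were above the pool for 8, 10, 4 and 10 of 10. Their summed mouse-channel signal was 17088 and 15078 in the mutant mice and 4968 and 23639 in the null mice, against 6833 to 7664 in the pool. The brightest, lysozyme Lyz2, weighs most in this sum and lay at 1.58, 1.25, -1.22 and 1.86. The protease Ctss lay at 1.09, 0.86, 0.45 and 1.97. Adgre1 (F4/80), a defining macrophage gene picked out after its values were seen, lay at 1.01, 1.01, -0.37 and 1.72. Not every marker followed the order of the medians. Cd14 lay at -0.17, 0.04, 0.07 and 0.38. Mutant mouse 2 was slightly above mutant mouse 1 for Csf1r (0.70 against 0.69), Aif1 (0.07 against -0.08) and Adgre1. The mutant mice were nearly level in the macrophage medians but not in those of the type I responders, at 0.74 and 0.05. The part of macrophages in the gene values was not tested.

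The other leukocyte lists had fewer genes bright enough to test. T cell markers, 6 of 8 tested with Cd2 and Cd8a not well above background, had medians of 0.07, 0.04, 0.07 and 0.19, and a summed signal of 658 to 747 against 621 to 657 in the pool. All of them but Lck were dim, with mean log2 intensities of 6.26 (Cd4) to 6.72 (Cd3e), so their small ratios say little. Lck, the brightest at 7.77, lay at 0.45, 0.55, 0.08 and 0.27. B cell markers, 3 of 5 tested, lay at -0.26, -0.54, -0.23 and -0.31. Plasmacytoid dendritic cell markers, 2 of 3 tested without the defining Siglech, lay at 0.04, 0.10, -0.08 and 0.17. NK cell markers, 2 of 6 tested without Ncr1, Klrb1c, Gzma and Prf1, lay at 0.13, -0.20, -0.17 and 0.34. The only neutrophil marker tested of 4, S100a9, lay at 0.32, 0.24, -0.10 and 1.92. The same mice were highest and lowest as for the macrophage medians. S100a9 is 1 gene and was dim, with a mean log2 intensity of 6.76. Among non-immune lists, endothelium lay at -0.18, 0.24, -0.13 and 0.18, prostate epithelium at 0.41, 0.17, -0.10 and -0.18, basal epithelium at -0.31, -0.33, 0.98 and -0.05, and smooth muscle at -0.09, -0.59, 0.17 and -0.08. Null mouse 1 had the highest median of basal epithelium, from Krt14 (1.23) and Trp63 (0.98), while the brightest of these 3 markers, Krt5, was lowest there (-0.38). It also had the highest smooth muscle median. No marker was called in any comparison, and the part of tissue composition was not tested.

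**Figure D4:**
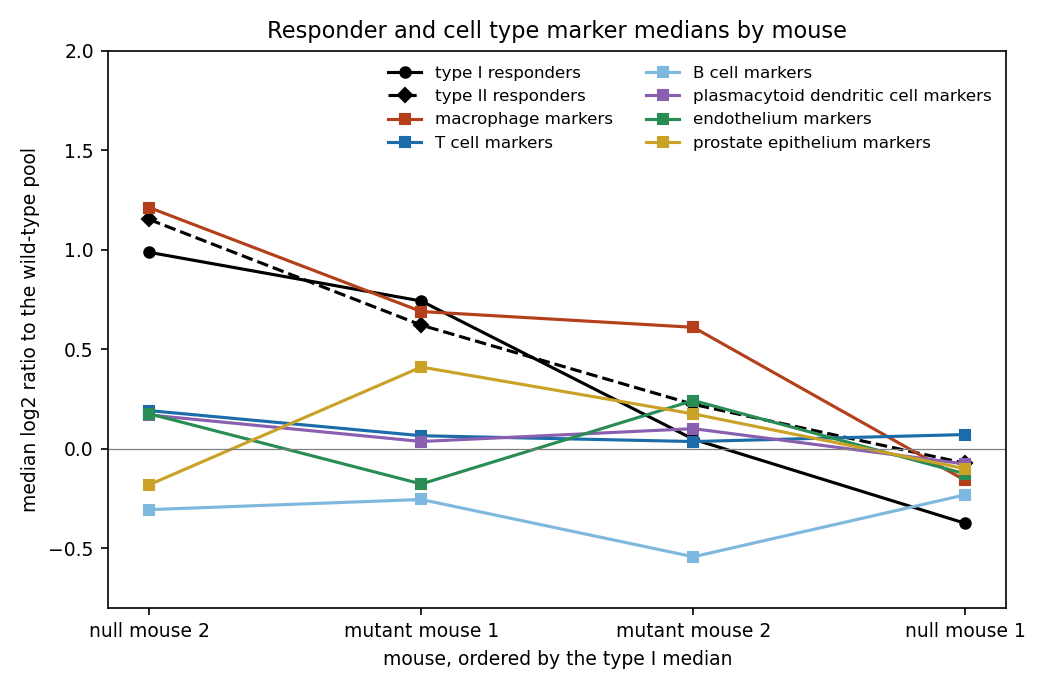
Median log2 ratio to the pool (vertical axis) of both responder classes (black) and of 6 cell type marker lists (colours) in each mouse, with the mice ordered by the type I median; lines join values of 1 list. Responder and macrophage medians fall from null mouse 2 (0.99, 1.15 and 1.21) to null mouse 1 (-0.38, -0.07 and -0.16). T cell medians lie between 0.04 and 0.19, but all T cell markers except Lck were dim, so this line says little.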

How the data were processed

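The 34 genes, their aliases and all lists were chosen with earlier results of these data known. Spot intensity in the deposited scanner files comes as a mean signal, a background median and a processed signal for each dye. Images were read with Agilent Feature Extraction, version 9.5.1.1 per the file headers and 8.5 per the submitters' processing notes. The deposited table gives genotype means as a linear ratio to the pool with a standard error, per the file headers, with no value per mouse; how it was made is not given in the sources used here. Probe positions are those of the files (mm7).

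Mean signals were corrected against background medians (normexp, offset 50) and loess-normalised within each array in limma 3.58.1 under R 4.3.3, with control spots at weight 0 and outlier-flagged spots left out. There were 0 saturated readings. Probes were kept if red was well above background in both mice of either genotype, or green in all 4 hybridisations, which left 24911. The 24850 with a value on every array were fitted with lmFit and eBayes, 1 mean per genotype, with Benjamini-Hochberg adjustment over all of them and a threshold of 0.05. The fit was tested on simulated data. Each gene is described by its brightest probe, and test values are given for the 2 genes of smallest unadjusted p in each class and comparison, since no member passed. Other genes come from the listed ligands, receptors, kinases and STATs, other IRFs, inducers, inhibitors and cell type markers. The labels name individual mice, 2 per genotype, and precision is limited by there being only 4 arrays. These shared 1 slide, on which mice of the same genotype lay side by side, so slide position cannot be told apart from genotype. Alternatives were Agilent's processed signals, median centring, offset 16, no filter, a filter on both channels, 1 probe per gene, leaving out each mouse, a replicate block and, chosen after seeing the data, the mouse channel alone. Promoters were searched in the RefSeq table of GRCm38.p6.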

Additional observations from a re-analysis of the deposited data

Results flagged for a closer look

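The dimmer Trim25 probe was the 1 tested member probe at which both mice of each genotype stood on opposite sides of the pool. Mutant mouse 1 lay at -0.17, mutant mouse 2 at -0.12, null mouse 1 at 0.25 and null mouse 2 at 0.23. The mutant minus null difference of -0.39 had an unadjusted p of 0.0762 and an adjusted p of 0.985 in limma. The brighter Trim25 probe, 2875 bases away, differed by 0.03.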

How the results depend on the processing

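0 members passed the threshold under each alternative run. Over all probes, mutant against null called 0 to 9 with 1 mouse left out. Mutant against pool called 2 with offset 16, 2 with both channels above background and 2 with 1 probe per gene, and 0 to 2 with 1 mouse left out. Null against pool called 2 with offset 16, 2 with both channels above background, and 0 to 376 with 1 mouse left out, the most without null mouse 2. All mice against pool called 3, against 6 with processed signals, 4250 (4183 higher) with median centring, 19 with offset 16, 0 with no filter and 5 with both channels above background, and 0 to 324 with 1 mouse left out. The labels do not say that replicate numbers pair the mice. The correlation of deviations between same-numbered mice was 0.00358, but with 2 pairs it cannot show whether they are paired. With the replicate block 0 probes and 0 members were called. Median centring moved the median of all probes to 0.62, 0.56, -0.04 and 0.41, in the order used above, and the medians of mutant mice 1 and 2 to 1.42 and 0.70 for type I and to 1.65 and 0.99 for type II responders. The full order of the mice held for 17 to 20 genes under the alternatives run on it, and null mouse 2 was highest for 22 to 28. The causes were not tested. Dim probes, among them all of Oas1g and Oas3, limit what can be seen.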
